A study of Mus musculus with 8 samples.

Results

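The genes described here are the cytosolic ribosomal protein genes, which encode the protein part of the 40S and 60S subunits of the ribosome. They were taken by symbol, as every gene whose name starts with Rpl or Rps and a digit, together with *Rplp0*, *Rplp1*, *Rplp2* and *Rpsa*, and without the S6 kinase genes (symbols starting with Rps6k) and symbols marked as pseudogenes (-ps). Of 105 symbols that match the name pattern, 10 S6 kinase genes and 6 pseudogenes were left out. The rule gave 89 of the 24539 genes in the table. They were sorted by symbol into 43 proteins of the 60S subunit, 31 of the 40S subunit, 3 of the P-stalk, 11 paralogues or retrogenes, and *Rps19bp1*, which encodes a protein that binds RPS19 and is not part of the ribosome.

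The libraries were made from bone marrow-derived macrophages (BMDMs), which are macrophages grown from marrow cells of 7-week-old male C57BL/6 mice in L929-conditioned medium and then kept overnight in M-CSF. The mice were *Tut7*-/- (KO in the labels), made with CRISPR/Cas9 and a pair of guides in introns of *Tut7*, or wild-type (WT). TUT7, encoded by *Zcchc6* (*Tut7*), adds uridines to the 3′ ends of RNAs, and LPS is the bacterial ligand of TLR4. There were 2 libraries for each of 4 groups: *Tut7*-/- with LPS for 4 h (KO-LPS), *Tut7*-/- untreated (KO-Ctrl), wild-type with LPS for 4 h (WT-LPS) and wild-type untreated (WT-Ctrl). The comparisons ask how LPS and the loss of *Tut7* bear on transcript levels in macrophages. Nothing in the labels tells whether both libraries of a group stem from different animals or cultures. A p-value here therefore measures the spread between the libraries at hand, and that spread may be technical.

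Each ribosome holds 1 copy of most of these proteins, so their genes are usually expressed at similar high levels in a cell. The 40S subunit reads the mRNA, the 60S subunit joins the amino acids, and the P-stalk of the 60S subunit recruits the elongation factors. In mammals many of these mRNAs begin with a C followed by a run of pyrimidines, the 5′ terminal oligopyrimidine (TOP) motif, through which the kinase mTOR and the RNA-binding protein LARP1 set how well the mRNA is translated and how stable it is. Some ribosomal proteins also have roles outside the ribosome, such as RPL13A, which in human myeloid cells joins the GAIT complex that silences inflammatory mRNAs.

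The start of the transcript was read from the RefSeq promoter table of GRCm38.p6, which held 68 of the 89 genes. A C at the annotated start followed by an unbroken run of at least 5 pyrimidines (C or T, the C included), searched on the transcript strand only, was found in 15 of these 68 genes (22.1%) and in 813 of all 27025 genes of that table (3.01%). Such a run starting within 5 bases of the annotated start was found in 31 (45.6%) and in 5718 genes (21.2%). The next lines show 8 of the 15 starts, chosen because the levels of these genes are described below. Each is 10 bases before and 15 from the annotated start, written 5′ to 3′, with the run of pyrimidines in capitals.
Rpl15: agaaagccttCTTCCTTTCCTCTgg
Rps10: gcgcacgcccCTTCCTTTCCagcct
Rps6: gaagtcgggcCTCTTTTTCgtgacg
Rpl28: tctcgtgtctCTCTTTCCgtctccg
Rps27: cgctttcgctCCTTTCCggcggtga
Rps27rt: ttatcccttgCTTTCCggcggtgac
Rpl14: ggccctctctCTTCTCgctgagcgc
Rplp2: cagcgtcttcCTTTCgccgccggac
These lie at chr14:18270972-18270996 for Rpl15, chr17:27635230-27635254 for Rps10, chr4:86857353-86857377 for Rps6, chr3:90213634-90213658 for Rps27 and chr9:114982725-114982749 for Rps27rt, all on the minus strand. On the plus strand they lie at chr7:4792955-4792979 for Rpl28, chr9:120571507-120571531 for Rpl14 and chr7:141447641-141447665 for Rplp2. The run was 13 bases long in *Rpl15*, the longest of the 15, and 5 bases in *Rplp2*. The starts below are of 3 genes without such a run at the annotated position, shown because *Rpsa* and *Rpl13a* had the largest falls with LPS in *Tut7*-/- cells among the called genes with an entry and *Rpl24* was the called gene that rose with LPS in wild-type cells.
Rpsa: ttatttaaggacgtcatttccggcc
Rpl13a: cctgcgacaagacctcctcctttcc
Rpl24: gctgttgctaggaaacagactgggc
Their windows are chr9:120127756-120127780 on the plus strand for Rpsa, chr7:45128731-45128755 on the minus strand for Rpl13a and chr16:55966265-55966289 on the plus strand for Rpl24. In *Rpl13a* a run of pyrimidines opened by a C lies within 5 bases of the annotated start. An annotated start is a single position and can miss the start used in macrophages, so a missing run says only that these letters are not in this window.

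The libraries held 3767900 to 9394632 counts. As a check of the labels, *Zcchc6* had 18 and 19 counts in KO-LPS, 17 and 23 in KO-Ctrl, 1162 and 716 in WT-LPS, and 427 and 615 in WT-Ctrl. All 8 macrophage markers were detected, with a summed level of 14500 to 15800 CPM (counts scaled to a library of 1e+06) in KO-LPS, 33800 to 40900 in KO-Ctrl, 12000 to 12500 in WT-LPS and 28000 to 29300 in WT-Ctrl. The 5 stromal markers summed to 8.2 to 9.64 CPM in KO-LPS, 23.7 to 28.6 in KO-Ctrl, 55.5 to 57.9 in WT-LPS and 85.4 to 103 in WT-Ctrl. The 2 cycling markers, *Mki67* and *Top2a*, summed to 23.1 to 33.1 CPM in KO-LPS, 25.9 to 36.1 in KO-Ctrl, 51.8 to 54.2 in WT-LPS and 60.5 to 85.6 in WT-Ctrl, and both were called lower in KO-Ctrl than in WT-Ctrl. The 4 dendritic cell markers summed to 9.58 to 11.6 CPM in KO-LPS, 0 to 0.886 in KO-Ctrl, 14.6 to 15 in WT-LPS and 0.51 to 0.905 in WT-Ctrl. That sum was carried by *Xcr1* (330 counts over all libraries), while *Flt3* had 3, *Zbtb46* 13 and *Siglech* 0 counts. The 4 B cell markers summed to 0.319 to 0.618 CPM in KO-LPS, 1.99 to 2.57 in KO-Ctrl, 0.507 to 1.06 in WT-LPS and 3.32 to 4.53 in WT-Ctrl, a sum carried by *Cd79b* (98 counts over all libraries). The 7 granulocyte markers summed to 2.1 to 2.98 CPM in KO-LPS, 1.22 to 1.54 in KO-Ctrl, 0.675 to 1.86 in WT-LPS and 1.79 to 1.81 in WT-Ctrl, with *Ly6g*, *Mpo* and *Elane* at 0 and *S100a8* (60 counts) called higher with LPS in *Tut7*-/- cells. The 4 T cell markers, with *Cd3d* and *Cd3g* at 0, summed to at most 0.905 CPM, and the 4 erythroid markers were at 0 in all libraries. The part of the markers in the results below was not tested.

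Of all library counts, the 89 genes took 2.26% and 2.50% in the KO-LPS libraries, 6.27% and 3.91% in KO-Ctrl, 2.08% and 2.40% in WT-LPS, and 5.17% and 3.49% in WT-Ctrl. Every LPS library thus lay below every untreated library. The group means were 2.38% ± 0.168 in KO-LPS, 5.09% ± 1.67 in KO-Ctrl, 2.24% ± 0.226 in WT-LPS and 4.33% ± 1.18 in WT-Ctrl (SD, n = 2 each). With 2 libraries against 2, the smallest two-sided p that an exact permutation test allows is 0.33. A smaller share in a bulk library does not tell fewer transcripts of these genes from more transcripts of other genes, nor fewer cells of a type from less RNA per cell.

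LPS libraries differed from untreated ones in composition as a whole, and TMM (trimmed mean of M-values), which scales libraries so that most genes stay level, gave factors of 0.781 and 0.776 for KO-LPS, 1.05 and 1.25 for KO-Ctrl, 0.777 and 0.810 for WT-LPS, and 1.37 and 1.46 for WT-Ctrl. After TMM the summed level of the 86 genes that passed the filter on low counts was 28980 and 32260 CPM in KO-LPS, 59920 and 31220 in KO-Ctrl, 26760 and 29570 in WT-LPS, and 37670 and 24010 in WT-Ctrl. On this scale the groups overlapped, with the second KO-LPS library above the second KO-Ctrl library and both WT-LPS libraries between those of WT-Ctrl. Levels below are CPM after TMM unless another unit is named.

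**Figure D1:**
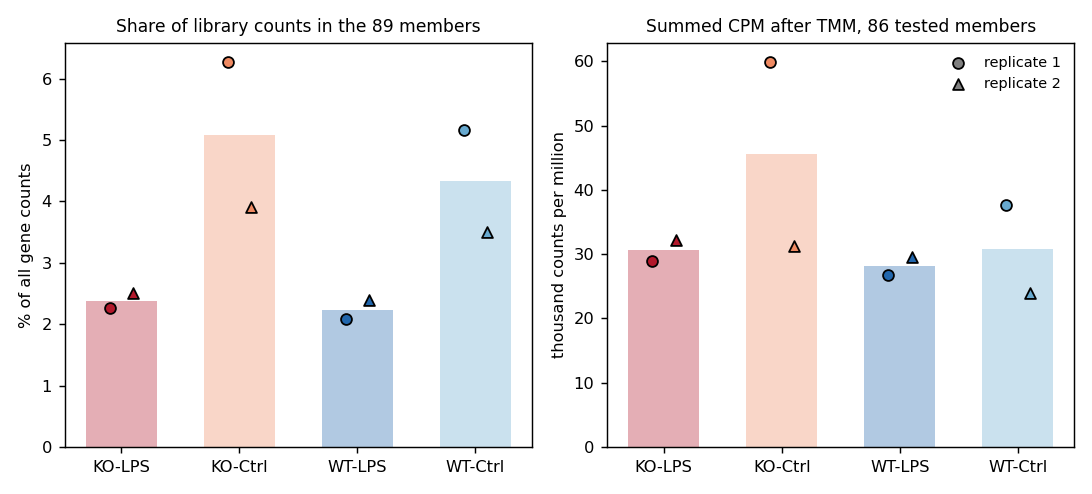
Left, share of all gene counts (%) in the 89 ribosomal protein genes; right, summed CPM after TMM, in units of 1000, of the 86 tested ones. Bars are group means and points the 2 libraries (circle replicate 1, triangle replicate 2). All LPS libraries lie between 2.08% and 2.50% on the left, below the untreated ones, while on the right the groups overlap.

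Both untreated groups were split between their libraries. All 86 tested genes were higher in replicate 1 than in replicate 2 of KO-Ctrl (median log2 difference 0.917) and of WT-Ctrl (0.66), where the median over all tested genes was -0.006 in KO-Ctrl and 0.057 in WT-Ctrl. With LPS the same difference was positive for 3 of 86 genes in KO-LPS (median -0.148) and 11 of 86 in WT-LPS (-0.163). In KO-Ctrl it was largest for *Rpl41* (1.64) and *Rpl39* (1.63), both among the smallest proteins of the 60S subunit, and smallest for *Rps19bp1* (0.171). The genes thus moved together between libraries that carry the same label, and the first KO-Ctrl library was the highest of all 8 in their summed level.

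Counts of 60S and P-stalk genes over those of 40S genes gave a ratio of 1.542 and 1.548 in KO-LPS, 1.557 and 1.595 in KO-Ctrl, 1.583 and 1.541 in WT-LPS, and 1.532 and 1.594 in WT-Ctrl. Both KO-LPS values lay below both KO-Ctrl values, while WT-LPS overlapped WT-Ctrl and each *Tut7*-/- group overlapped the wild-type group of the same treatment. Per length, the median of the 77 genes of the 40S, 60S and P-stalk classes was 349.0 and 385.5 RPKM in KO-LPS, 948.3 and 566.6 in KO-Ctrl, 316.3 and 381.0 in WT-LPS, and 798.3 and 541.1 in WT-Ctrl. Of the 100 genes with the highest RPKM, 5 and 6 were ribosomal protein genes in KO-LPS, 38 and 28 in KO-Ctrl, 3 and 6 in WT-LPS, and 39 and 29 in WT-Ctrl. Among the 500 highest the numbers were closer, at 72 and 73 in KO-LPS, 76 and 75 in KO-Ctrl, 70 and 73 in WT-LPS, and 77 and 76 in WT-Ctrl.

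Averaged over all libraries, 66 of these 77 genes lay within 2-fold of their median of 545.6 RPKM. The highest were *Rpl10*, a 60S protein at the subunit interface (1300 RPKM), the P-stalk gene *Rplp1* (1233) and *Rpl41* (1119). The lowest was *Rps27*, a zinc-binding 40S protein, at 3.96 RPKM, before *Rps15a* (61.2) and *Rpl22* (71.6). The RPKM of *Rps15a* was divided by a length of 5273 nt and that of *Rps20* (115 RPKM) by 3539 nt, against a median of 712 nt for the tested genes, and a longer length lowers RPKM for a given count.

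The place of *Rps27* goes with its retrogene *Rps27rt*. *Rps27* had 6 and 13 counts in KO-LPS, 29 and 20 in KO-Ctrl, 6 and 10 in WT-LPS, and 30 and 20 in WT-Ctrl, while *Rps27rt* had 1643 and 2055 in KO-LPS, 4894 and 3318 in KO-Ctrl, 1177 and 729 in WT-LPS, and 3365 and 2497 in WT-Ctrl. Of all stretches of 75 bases in the *Rps27rt* transcript, 90.3% are also in *Rps27*, and 48.5% of those of *Rps27* are in *Rps27rt*. Reads cannot be placed between them with certainty, and the level of each is reported as uncertain. For 70 of the 89 genes no such stretch was shared with another transcript, and 12 shared over 10% of theirs, among them *Rpl37rt* (32.1% with *Rpl37*), *Rpl22l1* (49.1%), *Rplp2* (44.5%), *Rpl14* (42.6%) and *Rpl26* (47.3%), whose levels carry the same doubt.

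With LPS in *Tut7*-/- cells, 30 of the 86 tested genes fell and none rose at an adjusted p under 0.05 (edgeR's quasi-likelihood test, Benjamini-Hochberg adjusted over all 11501 tested genes). Among all tested genes 33.2% fell and 34.8% rose, so the share that fell was near the background and the share that rose was not. The 30 were 10 of 31 genes of the 40S subunit, 15 of 43 of the 60S subunit, all 3 of the P-stalk, and the retrogenes *Rps27rt* and *Rpl37rt*. The median log2 fold change was -0.62 over the 86 genes, 79 of which were negative, and -0.07 over all tested genes. At an unadjusted p under 0.05, 36 were lower (34.9% of all tested genes) and 0 higher (35.7%), and DESeq2's Wald test called 37 lower (32.0% of all tested genes) and 0 higher (33.2%).

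The largest fall among the called genes was in *Rpsa*, a 40S protein that is also known as a laminin receptor (chr9:120127766-120132369 in GRCm38). *Rpsa* had 583 and 605 CPM in KO-LPS libraries, 1726 and 879.9 in KO-Ctrl, 544 and 577 in WT-LPS, and 884.5 and 560.5 in WT-Ctrl. Both KO-LPS values lay below both KO-Ctrl values, and the first KO-Ctrl library stood far above all others. The log2 fold change was -1.13 (SE 0.289, adjusted p = 0.0029).

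*Rpl13a* (chr7:45125563-45128745), the GAIT component, had 404 and 463 CPM in KO-LPS, 1349 and 495.5 in KO-Ctrl, 319 and 356 in WT-LPS, and 642 and 363 in WT-Ctrl. The first KO-Ctrl library carried most of its difference (log2 fold change -1.09, SE 0.361, adjusted p = 0.015), since the second was only slightly above KO-LPS.

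*Rpl28* (chr7:4792965-4794547), a 60S protein whose start is shown above, had 269 and 320.2 CPM in KO-LPS, 747 and 440.3 in KO-Ctrl, 272 and 304 in WT-LPS, and 436 and 284 in WT-Ctrl (KO-LPS over KO-Ctrl -1.01, SE 0.27, adjusted p = 0.0038). *Rps28* (chr17:33823036-33824562), a small 40S protein near the mRNA exit, had 114 and 138 CPM in KO-LPS, 319.9 and 187.5 in KO-Ctrl, 112 and 141 in WT-LPS, and 204 and 125 in WT-Ctrl (-1.01, SE 0.282, adjusted p = 0.0052). In these genes, too, the groups of *Tut7*-/- cells did not overlap, and each KO-LPS value was close to a WT-LPS value.

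*Rpl3* (chr15:80077781-80083406), a large 60S protein near the centre where peptide bonds form, had 419 and 457 CPM in KO-LPS, 1060 and 641.5 in KO-Ctrl, 330 and 389.6 in WT-LPS, and 634 and 471 in WT-Ctrl (-0.96, SE 0.251, adjusted p = 0.0034). *Rpsa*, *Rpl28*, *Rps28* and *Rpl3* were chosen after their values were seen, as being among the 6 genes called lower in each of 8 fits that left out 1 library. Without the first KO-Ctrl library their log2 fold changes were -0.60, -0.61, -0.60 and -0.58, with adjusted p from 0.011 to 0.022. The other 24 calls, those of *Rpl13a* and the P-stalk genes among them, were each lost in at least 1 of these fits.

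**Figure D2:**
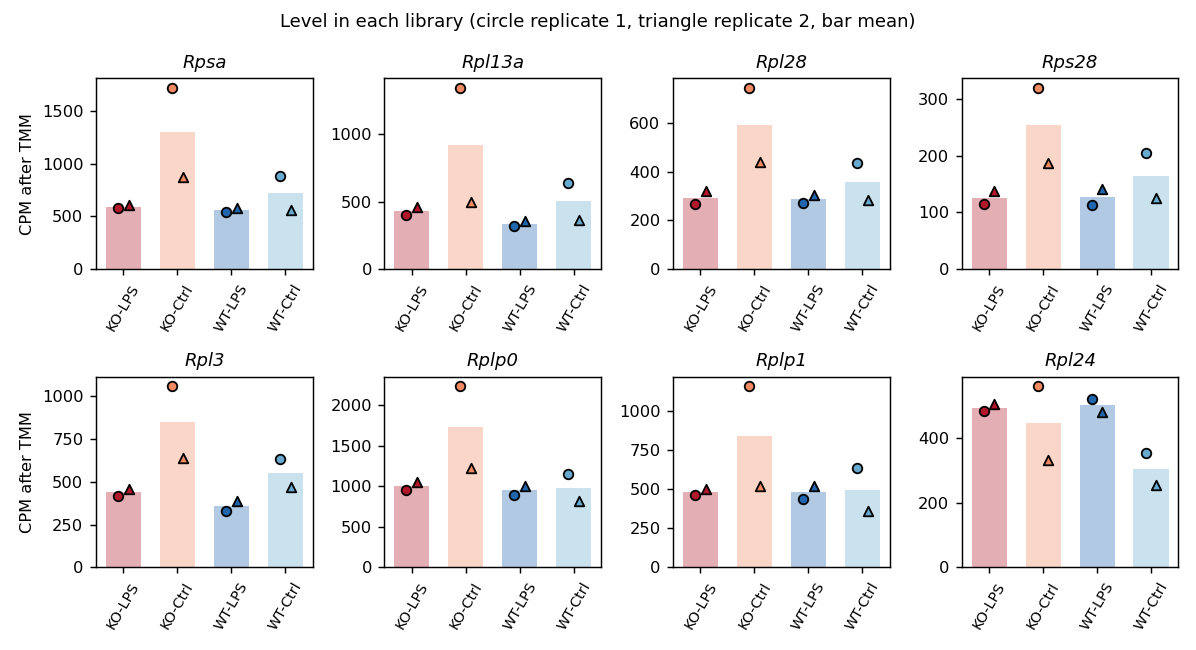
CPM after TMM of 8 ribosomal protein genes in each library, with the 4 groups along the axis, points for the 2 libraries (circle replicate 1, triangle replicate 2) and bars for their mean. The first KO-Ctrl library is the highest for every gene shown, for example 1726 CPM for Rpsa, and Rpl24 is the gene in which both WT-LPS libraries lie above both WT-Ctrl libraries on this scale (with library size alone its log2 fold change was -0.11).

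The 3 genes of the P-stalk fell together. *Rplp0* (chr5:115559467-115563729), the base of the stalk, had 956 and 1052 CPM in KO-LPS, 2239 and 1221 in KO-Ctrl, 896.5 and 1009 in WT-LPS, and 1146 and 814 in WT-Ctrl. Its log2 fold change with LPS in *Tut7*-/- cells was -0.79 (SE 0.266, adjusted p = 0.017), and those of its partners were -0.80 for *Rplp1* (adjusted p = 0.04) and -0.76 for *Rplp2* (0.021). *Rplp0* is often used as a reference gene in RT-qPCR, and its level here followed that of the other ribosomal protein genes.

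At the small end of the called genes, *Rpl7a* (-0.61, adjusted p = 0.037), *Rpl14* (-0.62, adjusted p = 0.033) and *Rpl8* (-0.68, adjusted p = 0.036), all of the 60S subunit, had the smallest falls. *Rpl8* and *Rpl7a* turned to 0.60 and 0.62 with a correction for length and GC content. *Rpl22*, an RNA-binding 60S protein with a role in lymphocyte development, had 139 and 143 CPM in KO-LPS, 299.9 and 153 in KO-Ctrl, 122.5 and 128 in WT-LPS, and 209 and 128 in WT-Ctrl (-0.68, adjusted p = 0.048). *Rps3*, a 40S protein that also binds NF-κB in human cells, had -0.79 (adjusted p = 0.033).

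Other members with roles outside translation, or with a special link to mTOR, did not pass. *Rps6*, the 40S protein that S6 kinases phosphorylate and whose start carries a run of 9 pyrimidines, had 528 and 564 CPM in KO-LPS, 904 and 518 in KO-Ctrl, 514 and 537 in WT-LPS, and 591 and 401 in WT-Ctrl (-0.38, adjusted p = 0.21). The second KO-Ctrl library was below both KO-LPS libraries. *Rps19*, a 40S protein mutated in Diamond-Blackfan anaemia, had a value of -0.65 (adjusted p = 0.093). *Rps27a*, made as a fusion with ubiquitin, had 420.0 and 489 CPM in KO-LPS, 693 and 367 in KO-Ctrl, 345 and 390.0 in WT-LPS, and 608 and 383.5 in WT-Ctrl (-0.22, adjusted p = 0.5).

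How many genes fell in *Tut7*-/- cells depended on which library was left out and on the scaling. Calls were lost without either KO-LPS library, and also without either WT-LPS library, though WT-LPS is not part of this comparison. Without the first KO-Ctrl library 6 genes were lower and 5 higher, with a median of -0.06 (31.0% and 32.3% of all genes tested then). Without the second 74 were lower, with a median of -1.002 (34.0%). Scaled by library size alone, 76 genes were lower (46.8% of all tested genes), and the median over all tested genes moved to -0.63, so that the members' median relative to it was -0.52, against -0.55 with TMM. With a correction for length and GC content, added after seeing the data, 25 genes were lower and 30 higher (30.0% and 36.6% of the genes tested there) and the median was -0.002. Of those 6 genes, *Rpsa*, *Rps28* and *Rpl3* were still called lower there (-0.78, -0.82 and -0.40, adjusted p = 0.034, 2.9e-05 and 0.019).

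With LPS in wild-type cells, 1 gene rose and 1 fell by the same test, where 27.0% of all tested genes rose and 30.4% fell. The gene that rose was *Rpl24* (chr16:55966275-55971437), a 60S protein that reaches from its subunit towards the 40S subunit. *Rpl24* had 519 and 479.7 CPM in WT-LPS and 354 and 254.5 in WT-Ctrl, and the *Tut7*-/- libraries had 481 and 503 CPM in KO-LPS and 559.9 and 332 in KO-Ctrl. Both WT-LPS values lay above both WT-Ctrl values (log2 fold change 0.72, SE 0.253, adjusted p = 0.025), but with library size alone the value was -0.11, so the direction depends on the scaling. In *Tut7*-/- cells the groups overlapped (0.14, adjusted p = 0.63).

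*Rpl3* was the gene that fell in wild-type cells (-0.62, SE 0.251, adjusted p = 0.045), with both WT-LPS values given above below both WT-Ctrl values. Its adjusted p ranged from 0.00013 to 0.28 over 24 alternatives, and neither call held in every fit that left out a library. The median over the 86 genes was -0.12 in wild-type cells, against -0.17 over all tested genes. It was -0.94 with library size alone, where the median over all tested genes was -1.0 and 73 of the 86 genes were lower, as were 57.3% of all tested genes.

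Without scaling by TMM, the CPM of 82 of 86 genes lay lower in both KO-LPS libraries than in both KO-Ctrl libraries, as for 54.2% of all tested genes. In wild-type cells it was 80 of 86, and 68.8% of all tested genes. After TMM these numbers were 37 lower in KO-LPS than in KO-Ctrl (42.0% of all tested genes), and 5 lower (44.9%) and 3 higher (36.4%) in WT-LPS than in WT-Ctrl.

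Between the genotypes without LPS, 11 genes were higher in KO-Ctrl and none lower, where 14.8% of all tested genes were higher and 22.2% lower. The same KO-Ctrl libraries enter this comparison and that of LPS in *Tut7*-/- cells, so a high KO-Ctrl library raises one and lowers the other. At an unadjusted p under 0.05, 36 genes were higher (22.2% of all tested genes) and 0 lower (26.9%), and DESeq2's Wald test called 28 higher (16.5%) and 0 lower (19.5%). Scaled by library size alone, none of the 11 calls was kept. On that scale no gene was higher and 1 was lower, *Rpl36al*, where 2.8% of all tested genes were higher and 25.9% lower. In CPM without TMM, 2 genes lay higher in both KO-Ctrl libraries than in both WT-Ctrl libraries (20.1% of all tested genes) and 2 lower (44.2%), and after TMM 10 lay higher (33.1%) and 0 lower (35.5%). The median log2 fold change was 0.58, against 0.006 over all tested genes, and 80 of 86 were positive. The called genes were 4 of the 40S subunit (among them *Rps10*, *Rpsa* and *Rps2*), 5 of the 60S subunit (*Rpl27*, *Rpl32*, *Rpl15*, *Rpl28*, *Rpl14*), *Rplp0* and the paralogue *Rps4l*.

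The highest value was that of *Rps4l*, a relative of the X-linked 40S gene *Rps4x*, with 9.46 and 7.26 CPM in KO-Ctrl and 4.95 and 3.16 in WT-Ctrl (log2 fold change 1.05, SE 0.36, adjusted p = 0.034). Both KO-Ctrl values were above both WT-Ctrl values. *Rps10*, a 40S protein with a run of 10 pyrimidines at its start, had 788 and 384 CPM in KO-Ctrl and 396 and 241 in WT-Ctrl (0.88, SE 0.308, adjusted p = 0.037), and these groups overlapped, since the second KO-Ctrl library was below the first WT-Ctrl library.

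The smallest called differences were in *Rpl14* (0.67, SE 0.24, adjusted p = 0.041), *Rpl28* (0.72, adjusted p = 0.046) and *Rpl15* (0.73, adjusted p = 0.046), 60S genes that all start with a run of pyrimidines. Of the 15 genes with such a start, 4 were called, with a median of 0.64, and of 50 tested genes with another annotated start 4 were called, with a median of 0.56. With LPS in *Tut7*-/- cells it was 6 of 15 (median -0.71) and 16 of 50 (-0.55). Of the 21 tested genes without an entry, 3 were called between KO-Ctrl and WT-Ctrl (median 0.62). With LPS in *Tut7*-/- cells 8 of these 21 were called (-0.68). In wild-type cells the medians with LPS were -0.02 with such a start, -0.15 with another and -0.10 without an entry. With the correction for length and GC content *Rpl28* and *Rps10* turned to -0.18 and -0.05, and the median over the genes to -0.05. None of the 11 calls held in every fit that left out a library. Without the first KO-Ctrl library 3 genes were lower in KO-Ctrl (*Rpl21*, *Rpl36al*, *Rpl7*) and none higher (17.2% and 8.22% of all genes tested then). Without the second 73 were higher (25.1%), and without the second WT-Ctrl library none was called higher or lower (7.59% of all genes tested then were higher).

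**Figure D3:**
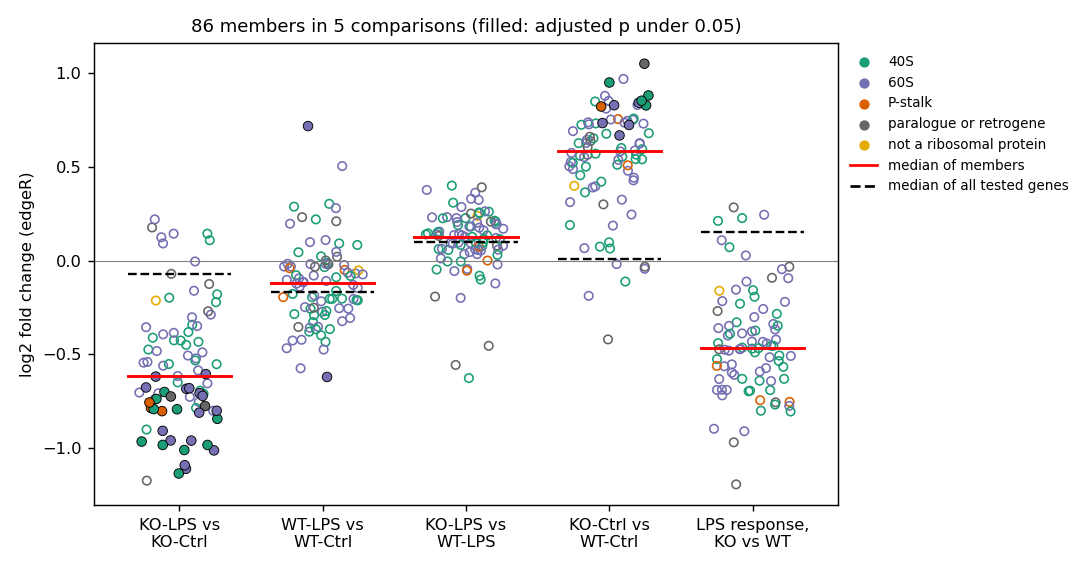
Log2 fold change (edgeR) of the 86 tested genes in the 5 comparisons, coloured by class and filled where called at an adjusted p under 0.05. Red lines are medians of the 86 genes and dashed lines those of all 11501 tested genes. The 2 medians differ most for KO-LPS vs KO-Ctrl (-0.62 and -0.07), KO-Ctrl vs WT-Ctrl (0.58 and 0.006) and the LPS response in KO vs WT (-0.47 and 0.15), the comparisons that use the KO-Ctrl libraries.

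With LPS in both genotypes, no gene differed between *Tut7*-/- and wild-type cells by edgeR's quasi-likelihood test, where 0.626% of all tested genes were higher and 0.774% lower in KO-LPS. None passed at an unadjusted p under 0.05 either, where 12.9% of all tested genes did, the smallest adjusted p was 0.5, and DESeq2's Wald test called 0. The median was 0.13 over the 86 genes and 0.10 over all tested genes. In CPM after TMM, 34 genes lay higher in both KO-LPS libraries than in both WT-LPS libraries, near the 35.7% of all tested genes that did. A fit to the 4 LPS libraries alone, with fewer samples behind its estimate of the spread, called *Rpl21* and *Rpl36al* lower in KO-LPS, as it did 10.0% of the genes it tested.

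The LPS response itself was compared between the genotypes by an interaction term, and no gene was called, where 4.06% of all tested genes had a higher and 0.435% a lower response in *Tut7*-/- cells. At an unadjusted p under 0.05 in the same edgeR fit, 1 gene was lower (5.07% of all tested genes), *Rpl27*, a 60S protein, with an interaction of -0.90 (SE 0.39, adjusted p = 0.18). DESeq2's Wald test called 0 after adjustment, where 3.58% of all tested genes had a higher and 1.23% a lower response. Before adjustment it had 9 lower, and the share of all tested genes at that threshold was not computed, so this number cannot be weighed. The median of -0.47 over the 86 genes, against 0.15 over all tested genes, became 0.06 without the first KO-Ctrl library, and without the second 55 genes were called lower (8.12% of all genes tested then). The 30 calls in *Tut7*-/- cells and 2 in wild-type cells are therefore not shown to be a difference between the genotypes.

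The makeup within the ribosomal protein genes does not depend on the scaling between libraries, since each gene is given per 1000 counts of all 89 genes. In this measure 10 of the 86 tested genes were higher in all 4 LPS libraries than in all 4 untreated ones, and 14 were lower. Scaled the same way, 28.6% of all tested genes were higher and 20.1% lower, so both numbers lay below these shares. The comparison is not like for like. Shares of the members must balance one another, while a member total that is a smaller part of every LPS library raises other genes there. *Rpl24* took 16.6 and 15.6 of 1000 counts in KO-LPS, 9.34 and 10.6 in KO-Ctrl, 19.4 and 16.2 in WT-LPS, and 9.39 and 10.6 in WT-Ctrl. Among these 10 genes it had the largest ratio, 1.70 for the LPS over the untreated libraries, and its untreated values were alike in both genotypes.

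The next among the 10 were *Rps24*, a 40S protein mutated in Diamond-Blackfan anaemia, with a ratio of 1.48, and *Rps15a*, a 40S protein, with 1.35. *Rps24* took 20.5 and 20.0 of 1000 counts in KO-LPS, 12.9 and 12 in KO-Ctrl, 23.5 and 20.7 in WT-LPS, and 16.9 and 15.6 in WT-Ctrl. *Rpl27* followed with 1.32, taking 10.3 and 9.62 in KO-LPS, 8.77 and 8.79 in KO-Ctrl, 11.1 and 11.4 in WT-LPS, and 6.99 and 7.64 in WT-Ctrl. The other 6 had ratios from 1.27 to 1.04, among them *Rpl5*, *Rpl23*, *Rpl34*, *Rps6* and *Rpl9*. *Rpl5*, which binds 5S rRNA and, when free, the p53 regulator MDM2, had the largest of these.

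On the other side *Rpl3* took 14.5 and 14.2 of 1000 counts in KO-LPS, 17.7 and 20.5 in KO-Ctrl, 12.3 and 13.2 in WT-LPS, and 16.8 and 19.6 in WT-Ctrl, a ratio of 0.725. *Rpsa* took 20.1 and 18.8 in KO-LPS, 28.8 and 28.2 in KO-Ctrl, 20.3 and 19.5 in WT-LPS, and 23.5 and 23.3 in WT-Ctrl, a ratio of 0.758. In *Rpsa* the libraries of a group were close to each other in this measure, while its CPM had split the KO-Ctrl libraries. *Rpl13a* (0.74), *Rps28* (0.782), *Rpl28* (0.793), *Rps2* (0.797) and *Rpl10* (0.824) were also lower with LPS, as were *Rpl32*, *Rpl22*, *Rpl37*, *Rps18* and *Rpl31* by less.

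**Figure D4:**
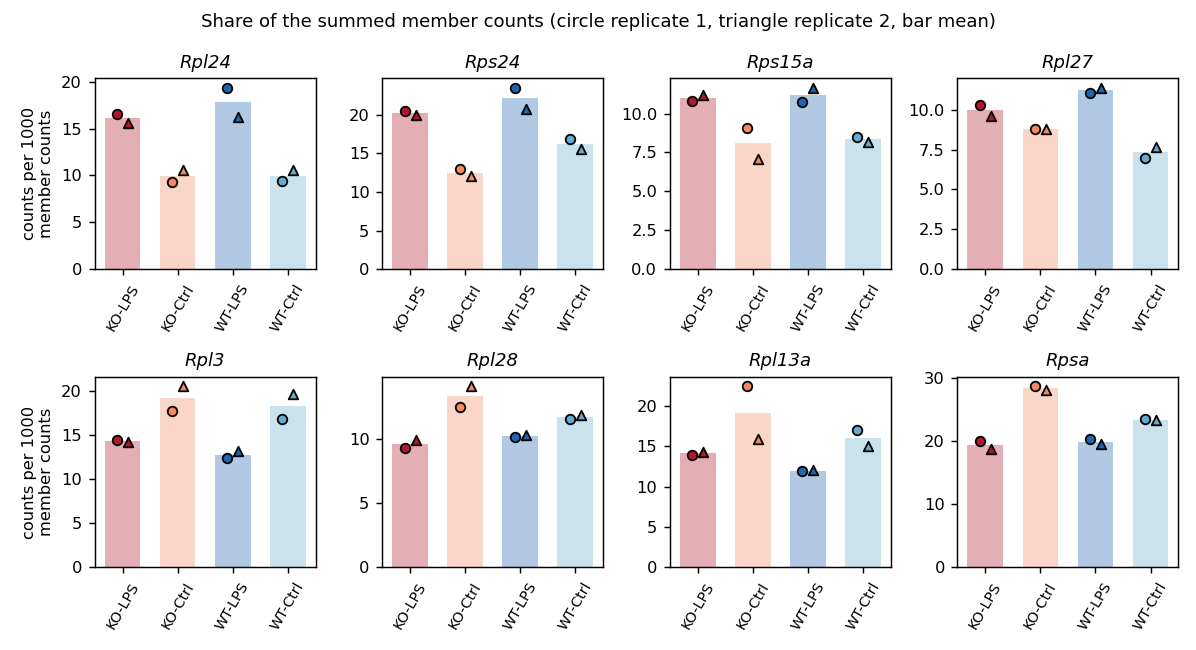
Counts per 1000 counts of all 89 ribosomal protein genes for 8 genes, in each library of the 4 groups (circle replicate 1, triangle replicate 2, bar mean). In the upper row both LPS groups lie above both untreated groups, as for Rpl24 at 15.6 to 19.4 with LPS against 9.34 to 10.6 without, and in the lower row they lie below.

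By genotype the same measure separated few genes. *Rpl15* was higher in all 4 *Tut7*-/- libraries than in all 4 wild-type ones, where 0.356% of all tested genes were, and *Rps26*, *Rpl36a* and *Rpl36al* were lower (2.65%). *Rpl36al*, an autosomal paralogue of the X-linked 60S gene *Rpl36a*, took 2.24 and 2.11 of 1000 counts in KO-LPS, 1.19 and 1.5 in KO-Ctrl, 3.21 and 3.26 in WT-LPS, and 2.52 and 2.61 in WT-Ctrl. Tested as a log2 fold change of CPM it was not called lower in *Tut7*-/- cells, with -0.45 between KO-LPS and WT-LPS (SE 0.255, adjusted p = 0.5) and -0.42 between KO-Ctrl and WT-Ctrl (SE 0.251, adjusted p = 0.19). The edgeR test with library size set to the counts of the 89 genes, added after seeing the data, called none of the 86 genes in any of the 5 comparisons, with *Rpl24* nearest in wild-type cells (0.83, adjusted p = 0.084). On that scale 41.4% of all tested genes were called with LPS in *Tut7*-/- and 31.1% in wild-type cells, but 0.00869% in each comparison of genotypes and 0.0% for the interaction.

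Other transcript properties that the choice of genes did not use were length and base composition. The tested members were short, with a median of 712 nt (336 to 5273 nt) against 2888 nt for all tested genes, and their GC content was 51.8% at the median (38.1% to 62.5%) against 50.3%. Over the 84 members with a GC value, the log2 fold change with LPS in *Tut7*-/- cells had a Pearson correlation with GC of -0.45, and that between KO-Ctrl and WT-Ctrl one of 0.42. Over all 10510 tested genes with both values these were -0.42 and 0.64, so the relation was not particular to the ribosomal protein genes. It was -0.11 for LPS in wild-type cells and -0.01 between KO-LPS and WT-LPS. The log2 ratio of LPS over untreated libraries in counts per 1000 member counts had a correlation of -0.34 with GC over the same 84 members. The points of each correlation share their libraries and genes are not independent replicates, so no p is given, and what moves with GC in these libraries was not tested.

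**Figure D5:**
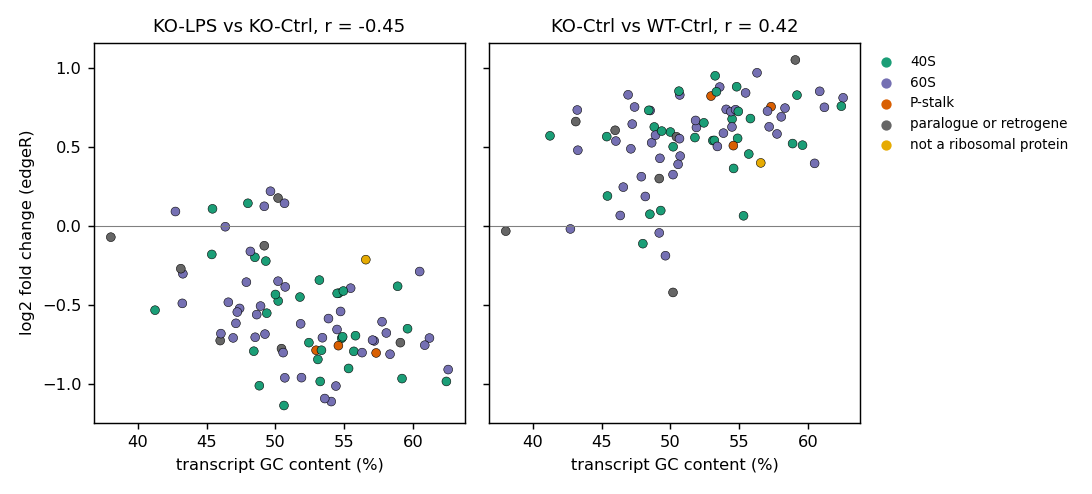
Log2 fold change (edgeR) against transcript GC content (%) for the 84 members with both values, coloured by class, with LPS in Tut7-/- cells on the left and KO-Ctrl over WT-Ctrl on the right. GC-rich members lie lower on the left (r = -0.45) and higher on the right (r = 0.42), and both comparisons use the KO-Ctrl libraries.

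Among the 11 paralogues and retrogenes, 8 were tested. *Rpl10l*, a testis form of *Rpl10*, was not detected at this depth (0 counts in each of 8 libraries), *Rpl3l*, a muscle form of *Rpl3*, had 1 and 2 counts in KO-Ctrl and none elsewhere, and *Rpl39l* had at most 5 counts in a library. *Rpl22l1*, a paralogue that acts against *Rpl22* in the development of T cells, had 85.0% and 85.6% of the RPKM of *Rpl22* in KO-LPS, 57.2% and 54.0% in KO-Ctrl, 90.2% and 70.7% in WT-LPS, and 76.7% and 77.5% in WT-Ctrl. The KO-Ctrl libraries were lowest in this ratio, but neither *Rpl22l1* (-0.07, adjusted p = 0.86) nor the ratio was shown to change with LPS.

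*Rpl36al* had 44.7% and 45.3% of the RPKM of *Rpl36a* in KO-LPS, 26.2% and 33.2% in KO-Ctrl, 54.9% and 58.4% in WT-LPS, and 45.0% and 45.7% in WT-Ctrl. *Rpl7l1*, a relative of *Rpl7*, stayed between 4.16% and 8.26% of *Rpl7*, and *Rps4l* between 0.533% and 1.31% of *Rps4x*. *Rps27l*, a p53 target in human cells, had -0.27 with LPS in *Tut7*-/- cells (adjusted p = 0.45). *Rps19bp1*, the member that is not a ribosomal protein, had 17.4 and 14.96 CPM in KO-LPS, 19.9 and 17.6 in KO-Ctrl, 14.8 and 12.4 in WT-LPS, and 16.5 and 12.01 in WT-Ctrl, with no call in any comparison.

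The name rule leaves out a few ribosomal proteins. *Rack1*, a scaffold on the 40S subunit, had 617 and 703.5 CPM in KO-LPS, 1475 and 831 in KO-Ctrl, 587 and 613 in WT-LPS, and 736 and 549 in WT-Ctrl. It fell with LPS in *Tut7*-/- cells (-0.80, adjusted p = 0.012) and was higher in KO-Ctrl than in WT-Ctrl (0.84, adjusted p = 0.02). Of the 3 genes of this list, 2 were called in each of these comparisons, and none in the other comparisons by edgeR. Of all tested genes 33.2% fell with LPS in *Tut7*-/- cells and 14.8% were higher in KO-Ctrl than in WT-Ctrl.

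Translation factors outside the ribosome moved in both directions. With LPS in *Tut7*-/- cells 18 of 37 initiation factors rose and 6 fell, and in wild-type cells 18 rose and 3 fell, with medians of 0.59 and 0.48, where the medians and shares of all tested genes are those given above. *Eif1a*, a scanning factor, had 215 and 186 CPM in KO-LPS, 16.1 and 13.6 in KO-Ctrl, 239.5 and 198 in WT-LPS, and 49.3 and 37.0 in WT-Ctrl (3.76 in *Tut7*-/- and 2.35 in wild-type cells, adjusted p = 3.3e-09 and 3.8e-07). Its interaction of 1.42 passed the test (SE 0.316, adjusted p = 0.025). A higher response in *Tut7*-/- cells was called for 3 of the 37, and for 4.06% of all tested genes.

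Of 10 genes listed as elongation factors and partners, 2 rose and 4 fell with LPS in *Tut7*-/- cells (median -0.42). In wild-type cells 3 rose and 1 fell (median 0.09). Of all tested genes, 34.8% rose and 33.2% fell in *Tut7*-/- cells, and 27.0% rose and 30.4% fell in wild-type cells. The list of 10 also held the initiation factor *Eif5b*, which was 1 of the 2 that rose in *Tut7*-/- cells (log2 fold change 2.23). *Eef2k*, the kinase that inhibits elongation factor 2, had 2.06 and 4.26 CPM in KO-LPS, 24 and 26.8 in KO-Ctrl, 2.39 and 2.29 in WT-LPS, and 20.7 and 27.1 in WT-Ctrl, a log2 fold change of -2.98 in *Tut7*-/- and -3.34 in wild-type cells (adjusted p = 1.5e-06 and 2.6e-06). Between KO-Ctrl and WT-Ctrl 2 of the 10 were higher, *Eef2* with 1.14 (adjusted p = 0.002) at their head. The 1 that was lower was the initiation factor *Eif5b* (-1.63, adjusted p = 0.0018). Of all tested genes 14.8% were higher and 22.2% lower there.

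Of 48 ribosome biogenesis genes 21 rose and 10 fell with LPS in *Tut7*-/- cells, and 16 rose and 2 fell in wild-type cells, with medians of 0.23 and 0.37. These numbers are to be read against the shares of all tested genes given for the elongation list. *Nop58*, a core protein of the particles that methylate rRNA, had 24.2 and 17.8 CPM in KO-LPS, 3.20 and 3.98 in KO-Ctrl, 47.4 and 34.4 in WT-LPS, and 14.2 and 12.1 in WT-Ctrl (2.53 in *Tut7*-/- cells, SE 0.305, adjusted p = 3e-06). Between KO-Ctrl and WT-Ctrl 6 were higher and 14 lower, *Nop58* among the lower (-1.85, adjusted p = 0.00075). Of all tested genes 14.8% were higher and 22.2% lower. In that comparison the median was 0.12 over the 48 genes and 0.58 over the ribosomal protein genes.

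Of 17 regulators of mTOR and of TOP mRNAs 5 rose and 6 fell with LPS in *Tut7*-/- cells, and 6 rose and 8 fell in wild-type cells, with medians of -0.35 and 0.29. Of all tested genes, 34.8% rose and 33.2% fell in *Tut7*-/- cells, and 27.0% rose and 30.4% fell in wild-type cells. *Larp1*, which binds TOP mRNAs, had 766 and 763 CPM in KO-LPS, 53.0 and 99.5 in KO-Ctrl, 671 and 655 in WT-LPS, and 59.3 and 80.7 in WT-Ctrl. This was a log2 fold change of 3.32 in *Tut7*-/- and 3.24 in wild-type cells (adjusted p = 7.7e-08 and 1.3e-07), and the LPS groups did not overlap the untreated ones. No gene of the initiation, elongation, biogenesis or mTOR lists was called between KO-LPS and WT-LPS by edgeR.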

How the data were processed

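The authors sequenced poly(A) RNA of 8 BMDM libraries as reads of 75 nt, mapped the reads with FANSe3 to mouse RefSeq RNA (mm10), and deposited raw read counts and RPKM for each gene symbol. The submitters' notes name edgeR and mm10, and no strand setting is stated. RPKM were taken from the sheet that also holds the counts. Members and gene lists were chosen with earlier results of these data known.

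Counts were tested with edgeR 4.0.16 in R 4.3.3. The filter filterByExpr kept 11501 of 24539 genes, among them 86 of 89 members. After TMM scaling, the quasi-likelihood fit (robust, a coefficient for each group) used all 8 libraries, which left 4 residual degrees of freedom. The common biological coefficient of variation was 18.5%. Calls required an adjusted p (Benjamini-Hochberg) under 0.05. The steps were tested on simulated data. By rule, the text names the 3 highest and 3 lowest called members of each comparison, the 3 highest and 3 lowest in RPKM, members fixed by role, and at most 2 called genes of each related list and comparison. *Rps24*, *Rpl27*, *Rpl5*, *Rps28* and other members outside this rule were named after their values were seen. A few genes that this rule names are not reported here. Start sites come from RefSeq (GRCm38.p6). Shared stretches and GC content come from GENCODE transcripts of genes whose symbols are among those counted. Other fits used DESeq2 1.42.0 and limma 3.58.1, and figures Python 3.11.15 with matplotlib 3.10.9.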

Additional observations from a re-analysis of the deposited data

How the results depend on the processing

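Medians kept their sign under most settings and counts of calls did not. The correction for length and GC content, library size from the counts of the 89 genes and the crossed block were added after seeing the data. For KO-LPS over KO-Ctrl (30 called) the count was 52 without a filter on low counts, 49 with at least 10 counts in every library, 17 with only the 4 libraries compared, 76 with library size only and with limma on log2(RPKM + 1) or log2(RPKM + 0.1), 18 with a length correction, 55 with length and GC, and 0 with library size from member counts. All of these calls were lower, except that 6 of the 18 and 30 of the 55 were higher. Under the settings other than member counts and left-out libraries, 25.8% to 46.8% of all tested genes were lower and 24.8% to 36.6% higher. The median was -1.149 with library size only, -0.002 with length and GC and -0.046 from member counts. For WT-LPS over WT-Ctrl (2 called) it was 1 with DESeq2 size factors or Wald test, 73 (all lower) with library size only or limma, 4 (2 lower) with only the 4 libraries or without both KO-Ctrl libraries, 5 (3 lower) with length, 22 (13 lower) with length and GC and 0 from member counts, and the median was -0.944, -0.908 and -0.916 with library size, limma + 1 and limma + 0.1. For KO-Ctrl over WT-Ctrl (11 called) it was 23 with size factors, 28 with the Wald test and 49 without the filter, all higher. It was 1 lower and none higher with library size only and with limma + 0.1 (*Rpl36al*), 2 lower and none higher with limma + 1, 1 higher with the 4 libraries, 7 (3 higher, 4 lower) with length, 18 with length and GC (9 higher, 9 lower; median -0.048) and 0 from member counts. None of the 11 calls was kept with library size only or limma, and over the same kind of settings 2.19% to 20.5% of all tested genes were higher and 13.7% to 31.6% lower. KO-LPS over WT-LPS (0 called) gave 2 with the 4 libraries and 1 with length and GC, all lower. There 0.409% to 10.0% of all tested genes were lower and 0.261% to 5.63% higher over the same kind of settings. The interaction's median was -0.017 with length and from member counts and 0.082 with length and GC.

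*Rpl24* with LPS in wild-type cells turned to -0.113 with library size only and -0.089 with limma at either pseudocount. With length and GC, *Rpl8* (0.597) and *Rpl7a* (0.622) turned with LPS in *Tut7*-/- cells, as did *Rpl28* (-0.175) and *Rps10* (-0.047) between KO-Ctrl and WT-Ctrl. The cause was not tested. Leaving out 1 library moved the called members to 6 to 74 for KO-LPS over KO-Ctrl (medians -1.002 to -0.057), 0 to 10 for WT-LPS over WT-Ctrl (-0.444 to 0.213), 0 to 73 for KO-Ctrl over WT-Ctrl (0.057 to 0.979), 0 to 0 for KO-LPS over WT-LPS (-0.001 to 0.183) and 0 to 55 for the interaction (-0.864 to 0.06). A lone library is then assumed to vary like the other groups. The share of counts was 2.264% to 2.502% for KO-LPS, 3.906% to 6.271% for KO-Ctrl, 2.076% to 2.395% for WT-LPS and 3.494% to 5.166% for WT-Ctrl. As a share of summed RPKM it was 6.597%, 12.096%, 6.281% and 11.001% for the same groups. Without the 20 other genes with most counts it was 2.715% for KO-LPS, 6.229% for KO-Ctrl, 2.531% for WT-LPS and 5.062% for WT-Ctrl.

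The labels do not say what a replicate number marks, and the numbers were not taken as pairs. The ranges of shares over all tested genes given above also cover the fits with a block below. No such range is given for WT-LPS over WT-Ctrl or for the interaction, so their counts under these settings are not weighed against all tested genes. Over all genes, deviations of same-numbered libraries had correlations from -0.198 (KO-LPS and KO-Ctrl) to 0.31 (KO-Ctrl and WT-Ctrl), and over the members 0.534 for KO-Ctrl and WT-Ctrl. With the replicate block 30, 2, 0, 14 and 0 members were called for KO-LPS over KO-Ctrl, WT-LPS over WT-Ctrl, KO-LPS over WT-LPS, KO-Ctrl over WT-Ctrl and the interaction, and 35 for KO-LPS over KO-Ctrl with the numbers of KO-LPS crossed. With length and block the counts were 18, 6 and 8 for KO-LPS over KO-Ctrl, WT-LPS over WT-Ctrl and KO-Ctrl over WT-Ctrl, and the interaction's median was -0.017. With length, GC and block they were 55 (median 0.002), 22, 18 (median -0.05) and, for KO-LPS over WT-LPS, 1, with an interaction median of 0.077, and the 4 genes that turned had 0.596 (*Rpl8*), 0.621 (*Rpl7a*), -0.178 (*Rpl28*) and -0.045 (*Rps10*).

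With 2 libraries per group and both untreated groups split between theirs, a change of the ribosomal protein genes as a whole cannot be told from a difference between single libraries. Depth limits *Rps27*, *Rps4l*, *Rpl32l* and the untested members, which had few counts.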

Other observations

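The ribosomes of mitochondria have their own proteins, made from nuclear genes on cytosolic ribosomes. Of 78 tested mitochondrial ribosomal protein genes, 11 rose and 26 fell with LPS in *Tut7*-/- cells, with a median log2 fold change of -0.40, and 8 rose and 16 fell in wild-type cells, with a median of -0.17 (edgeR's quasi-likelihood test). Over all tested genes the medians were -0.07 and -0.17, and 34.8% rose and 33.2% fell in *Tut7*-/- cells and 27.0% rose and 30.4% fell in wild-type cells. *Mrpl28* of the large subunit had 11.1 and 13.7 CPM in KO-LPS, 68.6 and 40.1 in KO-Ctrl, 13.1 and 12.1 in WT-LPS, and 38.2 and 28.1 in WT-Ctrl. It fell by 2.12 on the log2 scale in *Tut7*-/- cells (SE 0.298, adjusted p = 1.5e-05). In wild-type cells *Mrpl52*, also of the large subunit, rose with LPS (2.34, SE 0.265, adjusted p = 2e-06). Members of this family thus moved in both directions.

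Of 12 genes of ribosome quality control, which deals with stalled ribosomes, 5 rose and 2 fell with LPS in *Tut7*-/- cells, and 4 rose and none fell in wild-type cells, with medians of 0.10 and 0.40, and the numbers that rose are to be read against the 34.8% and 27.0% of all tested genes given above. *Abce1*, which splits ribosomes into subunits, rose in *Tut7*-/- (2.40, adjusted p = 7.2e-07) and in wild-type cells (2.07, adjusted p = 2.9e-06). Of the 3 partners of *Rpl13a* in the GAIT complex, 2 rose in each genotype, to be read against the same shares. They were *Syncrip* and *Eprs* in *Tut7*-/- cells and *Syncrip* and *Gapdh* (0.70, adjusted p = 0.018) in wild-type cells. *Syncrip*, an RNA-binding protein, rose in *Tut7*-/- (2.39, adjusted p = 4.8e-07) and wild-type cells (1.69, adjusted p = 1.8e-05), and *Eprs*, a tRNA synthetase, rose in *Tut7*-/- cells (2.02, adjusted p = 5.2e-06), with an interaction of 1.5 that passed the test (adjusted p = 0.031). *Rpl13a* itself was called lower with LPS in *Tut7*-/- cells, but the first KO-Ctrl library carried most of that difference, as described above. The interaction of *Rpl13a* was -0.52 (SE 0.507, adjusted p = 0.55).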
